A study of Homo sapiens with 24 samples.

Results

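The lysosomal membrane carries the proteins that keep the organelle sealed, acidified and connected to the rest of the cell, and 39 genes that encode these proteins or deliver cargo to them were followed in SW872, a human liposarcoma line in long use. The members were taken from a fixed list of symbols and looked up by Ensembl identifier in count tables of 60279 genes each. The lookup used no measured value, but the list was chosen with earlier results of these data known. Counts of called members are therefore a description and not an independent test of the list. They comprised 9 membrane glycoproteins and tetraspan proteins, 6 cation channels, 6 genes of chloride transport, 12 transporters and related membrane proteins, and 6 genes of mannose 6-phosphate tagging and sorting. All 39 were found. CD68 had at most 4 counts in any library and was not tested, which left 38 members among the 19997 genes tested.

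The 24 poly(A) RNA libraries fell into 8 groups of 3, and the libraries of a group came from SW872 cells transduced separately with a pBabeNeo retrovirus and selected as pools with G418. EV carried the empty vector. TFE3 and CAMTA1 carried the full-length transcription factors, and YAP5SA and TAZ4SA carried the coactivators YAP and TAZ with serines replaced by alanine so that the LATS1/2 kinases could not phosphorylate them. YAP-TFE3 joined the N terminus of YAP, which holds its TEAD binding domain, to the C terminus of TFE3, and TAZ-CAMTA1 joined TAZ to CAMTA1. RNA was taken 48 h after the plates became confluent, but the CAMTA1 group and a further empty vector group, EVsub, were harvested sub-confluent. CAMTA1 was therefore compared with EVsub and the other constructs with EV. All lines were forced expression in a single tumour line, and the fusions were not expressed from their own loci.

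Lysosomes break down material delivered by endocytosis and autophagy. Glycoproteins such as LAMP1 and LAMP2 line the inner face of the membrane, a proton pump acidifies the lumen, channels balance its charge, and transporters return amino acids, sugars and cholesterol to the cytoplasm. Newly made enzymes are tagged with mannose 6-phosphate and carried from the Golgi by receptors. TFE3, TFEB and MITF form a family of basic helix-loop-helix factors that bind the E-box CACGTG and are known to drive lysosomal genes through the extended form TCACGTGA. YAP and TAZ do not bind DNA themselves and act mostly through TEAD factors.

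Total counts ran from 19700277 to 35287476 per library. TFE3 RNA averaged 119 CPM (counts per 1000000 counts, with library totals scaled by TMM factors) in EV, 336 in TFE3 and 283 in YAP-TFE3. Reads of a construct and of the cell's own gene could not be told apart. Without a TFE3 construct, TFE3 RNA averaged 186 CPM in YAP5SA, 174 in the libraries labelled TAZ4SA and 147 in TAZ-CAMTA1. It averaged 99.1 CPM in EVsub and 97.1 in CAMTA1. YAP1 averaged 128 CPM in EV and 253 in YAP5SA, and CAMTA1 averaged 21.4 CPM in EV, 144 in TAZ-CAMTA1 and 124 in CAMTA1. WWTR1, which encodes TAZ, went against its label, at 204 CPM in EV and 134 in the libraries labelled TAZ4SA. The paper shows a western blot of Flag-tagged TAZ4SA in SW872 cells, but the counts do not show the construct in these libraries. Any direction drawn from them therefore rests on the label and not on the counts. WWTR1 averaged 181 CPM in TAZ-CAMTA1, not past the test against EV (adjusted p 0.236), and 68.8 CPM in YAP5SA. Among mesenchymal markers, VIM was at 464 to 1154 CPM and PDGFRB at 193 to 540 CPM. Of 7 adipocyte markers, ADIPOQ was at 0 in every library and LEP had at most 2 counts, while PPARG (27.2 to 100.3 CPM) and LPL (30.6 to 268 CPM) were present. The leukocyte marker PTPRC had at most 1 count. The keratin KRT8, an epithelial marker, ranged from 36.4 to 2447 CPM, and its part in the results was not tested.

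Promoter sequences were searched for the E-box CACGTG and are shown first. RefSeq windows from 250 bases before to 50 bases after a start site (GRCh38.p14) were matched for 33 of the 39 members, in 54 windows. LAMP2, LAMP3, LAPTM4B, MCOLN2, HGSNAT and TMEM55A were not matched. Both strands were searched, and each longer motif contains the shorter ones. CACGTG occurred in a window of 13 of the 33 members (39.4%) and of 8.77% of all 27305 genes in the table. TCACGTG, or its reverse complement, occurred in 12 members (36.4%) and 4.49% of all genes, and TCACGTGA in 9 members (27.3%) and 1.18% of all genes. Those 9 were CLCN5, CLCN6, CLN3, GNPTG, IGF2R, LAMP1, MCOLN1, NAGPA and SLC36A1. CLCN4, CLCN7 and M6PR held the E-box with a single flank and CD63 held the core alone. A gene with more windows has more places for a match, so shares were also taken by window. CACGTG occurred in 25.9% of the 54 member windows and 7.26% of all 35116 windows, and TCACGTGA in 18.5% and 0.98%. A match describes letters in a window and is not a measured binding site.

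LAMP1 and IGF2R held the most E-boxes in a single window, 6 and 3, and their 250 bases before the start site are shown for that reason. They are printed from 5′ to 3′ on the strand of the gene, with capitals for each CACGTG and a flanking T or A that extends it, and lie at chr13:113296989-113297238 and chr6:159968832-159969081, both on the plus strand. The E-boxes of LAMP1 began at positions -192, -176, -159, -142, -28 and -1, and the last crosses the start site, so that only its first letters appear. Those of IGF2R began at -132, -74 and -28, all in the extended form.
LAMP1: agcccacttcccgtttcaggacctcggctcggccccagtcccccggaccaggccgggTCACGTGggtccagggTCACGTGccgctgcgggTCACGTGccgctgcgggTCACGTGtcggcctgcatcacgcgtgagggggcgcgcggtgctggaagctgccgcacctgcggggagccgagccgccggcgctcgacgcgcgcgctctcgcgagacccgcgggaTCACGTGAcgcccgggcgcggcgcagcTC
IGF2R: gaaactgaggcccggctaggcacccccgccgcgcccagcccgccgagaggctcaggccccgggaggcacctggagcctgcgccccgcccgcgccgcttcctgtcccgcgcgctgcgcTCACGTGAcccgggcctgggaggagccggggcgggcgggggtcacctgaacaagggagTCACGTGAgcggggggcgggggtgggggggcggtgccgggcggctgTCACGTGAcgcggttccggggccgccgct

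Stretches of 30 bases show the extended element in 4 further members, of which CLCN5 and MCOLN1 were higher in YAP-TFE3 than in EV and GNPTG and SLC36A1 did not pass the test. Capitals again mark the E-box with its flanks. All are on the plus strand, at chrX:50067526-50067555 for CLCN5, chr19:7522571-7522600 for MCOLN1, chr16:1351901-1351930 for GNPTG and chr5:151447573-151447602 for SLC36A1.
CLCN5: caaaggtctggTCACGTGActccaacagtg
MCOLN1: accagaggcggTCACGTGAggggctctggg
GNPTG: acttccggtccccgtggTCACGTGAccgtc
SLC36A1: cctctggcgtgggcggtgggaTCACGTGAt

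**Figure D1:**
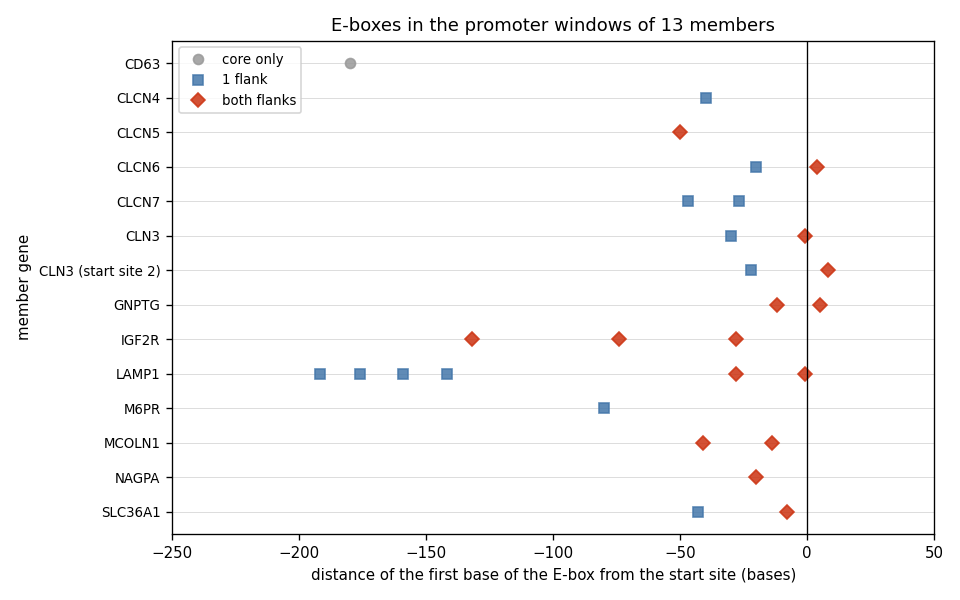
Positions of CACGTG in the RefSeq promoter windows of the 13 members that held it, in bases from the start site (x axis), with the marks separating the core alone, the core with 1 flank and the core with both flanks. The sites of CD63 (-180), 4 of the 6 sites of LAMP1 (-192 to -142) and 1 of IGF2R (-132) lay farthest upstream, and the other sites lay between -80 and 8.

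Most lysosomal membrane genes were higher with YAP-TFE3. Of the 38 members tested, 28 were higher and 1 was lower in YAP-TFE3 than in EV (edgeR quasi-likelihood test, Benjamini-Hochberg adjusted p under 0.05), where 25.6% of all genes were called higher and 22.6% lower. The median log2 fold change was 0.80 over the members and -0.01 over all genes tested. The summed CPM of the 39 members was 3041, 3255 and 3477 in EV and 5365, 5660 and 6229 in YAP-TFE3. In bulk RNA, a change in every cell and a change in some of the cells cannot be told apart. Members given below with values in every library were mostly picked as the largest called changes without overlap between groups. Their lack of overlap therefore follows from that choice, and the share of all genes without overlap was not counted.

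**Figure D2:**
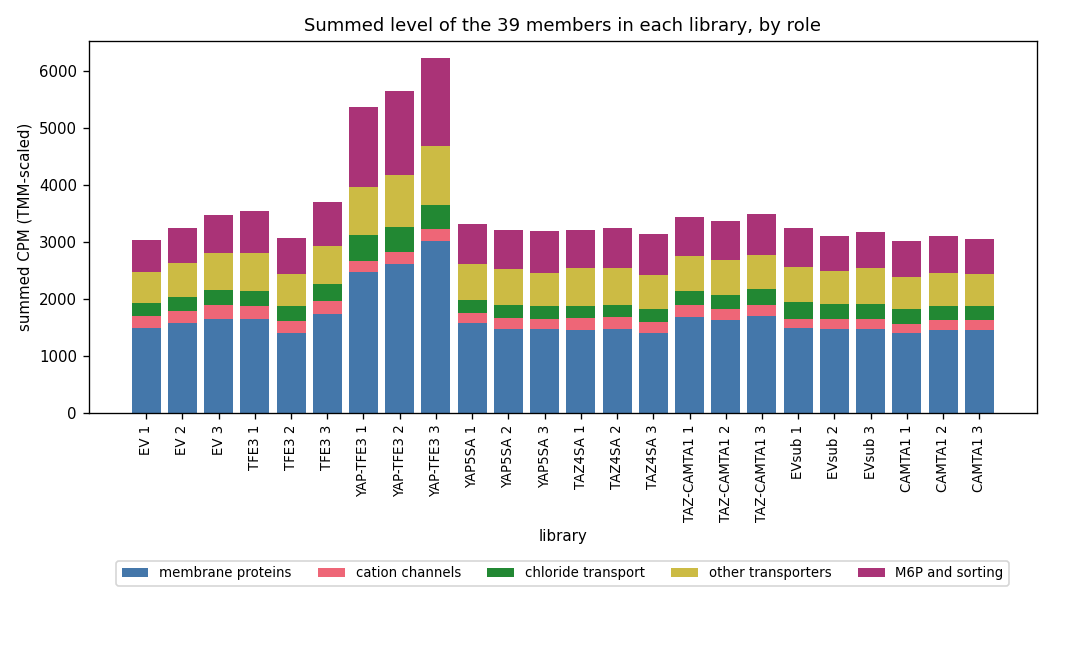
Summed CPM of the 39 members in each of the 24 libraries (y axis from 0, 1 bar per library), stacked by role. The 3 YAP-TFE3 bars stand at 5365 to 6229 CPM and the other 21 at 3023 to 3712 CPM.

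All 8 glycoproteins and tetraspan proteins tested rose with YAP-TFE3, with a median log2 fold change of 0.99. LAMP3, or DC-LAMP, best known from mature dendritic cells, was at 1.1, 1.07 and 0.873 CPM in EV and 15.8, 18.5 and 11.1 CPM in YAP-TFE3. It was thus 14.7-fold higher (log2 fold change 3.88 ± 0.24 SE, adjusted p 4.62e-12), with every YAP-TFE3 library above every EV library. LAMP2, a main glycoprotein of the membrane and the receptor of chaperone-mediated autophagy, was at 160, 148 and 162 CPM in EV and 421, 428 and 520.4 in YAP-TFE3 (2.91-fold, adjusted p 2.59e-11). The LAMP2 groups did not overlap either.

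LAMP1, the other main glycoprotein, ranged over 109.9 to 124 CPM in EV and 209 to 257 in YAP-TFE3 (1.97-fold). TMEM192, a membrane protein often tagged to purify lysosomes, was 2.66-fold higher, and the tetraspanin CD63, which had the highest level per kilobase of exon among the members, was 2.02-fold higher. LAPTM4A rose 1.74-fold and SCARB2, the receptor that carries glucocerebrosidase to lysosomes, 1.32-fold. LAPTM4B rose 1.19-fold and lost its call without EV replicate 1 (log2 fold change 0.21), EV replicate 2 (0.26) or YAP-TFE3 replicate 3 (0.17), and under total-count scaling (0.17). CD68, a glycoprotein of macrophage lysosomes, had 3, 0 and 1 counts in EV and 4, 1 and 1 in YAP-TFE3, and 81.6% of its exon bases are shared with a lncRNA on the same strand.

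The cation channels split by family. The mucolipins, calcium-permeable channels gated by a phosphoinositide of the lysosomal membrane, were all 3 higher in YAP-TFE3, and the other 3 channels did not pass the test. MCOLN2 had 8, 7 and 9 counts in EV and 56, 47 and 56 in YAP-TFE3, or 0.276, 0.267 and 0.436 CPM against 1.82, 1.48 and 1.62 CPM (5.09-fold, adjusted p 2.24e-06). MCOLN3 had 5, 14 and 8 counts in EV and 59, 37 and 73 in YAP-TFE3, or 0.173, 0.533 and 0.388 CPM against 1.92, 1.16 and 2.11 CPM (4.79-fold, adjusted p 0.000343). Both had large ratios from few reads, without overlap between the groups. MCOLN1, the widely expressed mucolipin and the gene mutated in mucolipidosis type IV, ranged over 12 to 17 CPM in EV and 19.6 to 22.4 in YAP-TFE3 (1.4-fold, adjusted p 0.000814).

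The endolysosomal channel TPCN1 had a log2 fold change of -0.21 (95% interval -0.38 to -0.04, adjusted p 0.0526), its relative TPCN2 of -0.09 (-0.26 to 0.08) and the proton and potassium channel TMEM175 of -0.22 (-0.48 to 0.04). These 3 intervals ended below that of MCOLN1 (0.27 to 0.70).

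All 6 genes of chloride transport rose with YAP-TFE3, with a median log2 fold change of 0.83. CLCN5, a chloride-proton exchanger of endosomes that is lost in Dent disease, was at 11.6, 12 and 12.8 CPM in EV and 49.9, 48.6 and 44.4 in YAP-TFE3 (3.93-fold, adjusted p 3.27e-13), without overlap. OSTM1, the partner subunit of the lysosomal exchanger CLCN7, was 2.69-fold higher and CLCN7 itself 1.74-fold. Exons of other genes lie opposite 15.7% of the CLCN7 exon bases, and the use of strand in the counting is not stated. The exchangers CLCN4 and CLCN3 were 1.82-fold and 1.69-fold higher. CLCN6, an exchanger of late endosomes known mostly from neurons, was 1.21-fold higher (adjusted p 0.00483), and a fit of the EV and YAP-TFE3 libraries alone did not call it (adjusted p 0.0679).

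Of the 12 transporters and related membrane proteins, 7 rose and 1 fell with YAP-TFE3. SLC17A5, or sialin, which exports sialic acid, was at 14.7, 16 and 17.1 CPM in EV and 58, 59.9 and 87.4 in YAP-TFE3 (4.31-fold, adjusted p 1.56e-11). CTNS, the cystine exporter mutated in cystinosis, was at 37.1, 42.1 and 49.4 CPM in EV and 122, 138 and 124 in YAP-TFE3 (2.99-fold, adjusted p 6.77e-12). For both genes the lowest YAP-TFE3 library was above the highest EV library. NPC1, which moves cholesterol out of the lumen, was 2.79-fold higher and NPC2, which hands cholesterol to NPC1, 1.75-fold. TMEM55A, a phosphoinositide phosphatase of the lysosomal membrane, was 2.01-fold higher and SLC15A4, a peptide and histidine transporter, 1.45-fold. CLN3, mutated in juvenile Batten disease, had 40, 36 and 39 counts in EV and 72, 89 and 111 in YAP-TFE3 (1.82-fold), and it shares 25.3% of its exon bases with another gene on the same strand.

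HGSNAT, which acetylates heparan sulfate for its breakdown, was the member called lower. It was at 97.9, 109.8 and 119 CPM in EV and 64.9, 71.5 and 98.9 in YAP-TFE3 (log2 fold change -0.47 ± 0.11 SE, adjusted p 0.0011), and YAP-TFE3 replicate 3 lay within the range of EV. SLC38A9, which reports luminal arginine to mTORC1, had a log2 fold change of 0.10 (95% interval -0.11 to 0.31) and the amino acid exporter SLC36A1 of 0.18 (-0.04 to 0.40). MFSD8, mutated in a late infantile form of Batten disease, had 0.10 (-0.16 to 0.36) and the lipid transporter ABCA2 -0.19 (-0.40 to 0.03). None of these 4 passed the test.

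Among the tagging and sorting genes, both mannose 6-phosphate receptors rose with YAP-TFE3. IGF2R, the cation-independent receptor, was at 199, 248 and 272 CPM in EV and 763, 814 and 736 in YAP-TFE3 (3.22-fold, adjusted p 8.02e-12), without overlap. M6PR, the cation-dependent receptor, was 2.00-fold higher, and SORT1, or sortilin, which sorts cargo without the tag, 2.45-fold. NAGPA, the enzyme that uncovers the tag, was 1.64-fold higher. GNPTAB and GNPTG, which encode the phosphotransferase that starts the tag, did not pass the test, at log2 fold changes of -0.18 (95% interval -0.41 to 0.05) and 0.28 (0.04 to 0.52). Exons of other genes lie opposite 50.6% of the GNPTG exon bases and 30.9% of those of M6PR, so that both could hold reads of a neighbour.

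**Figure D3:**
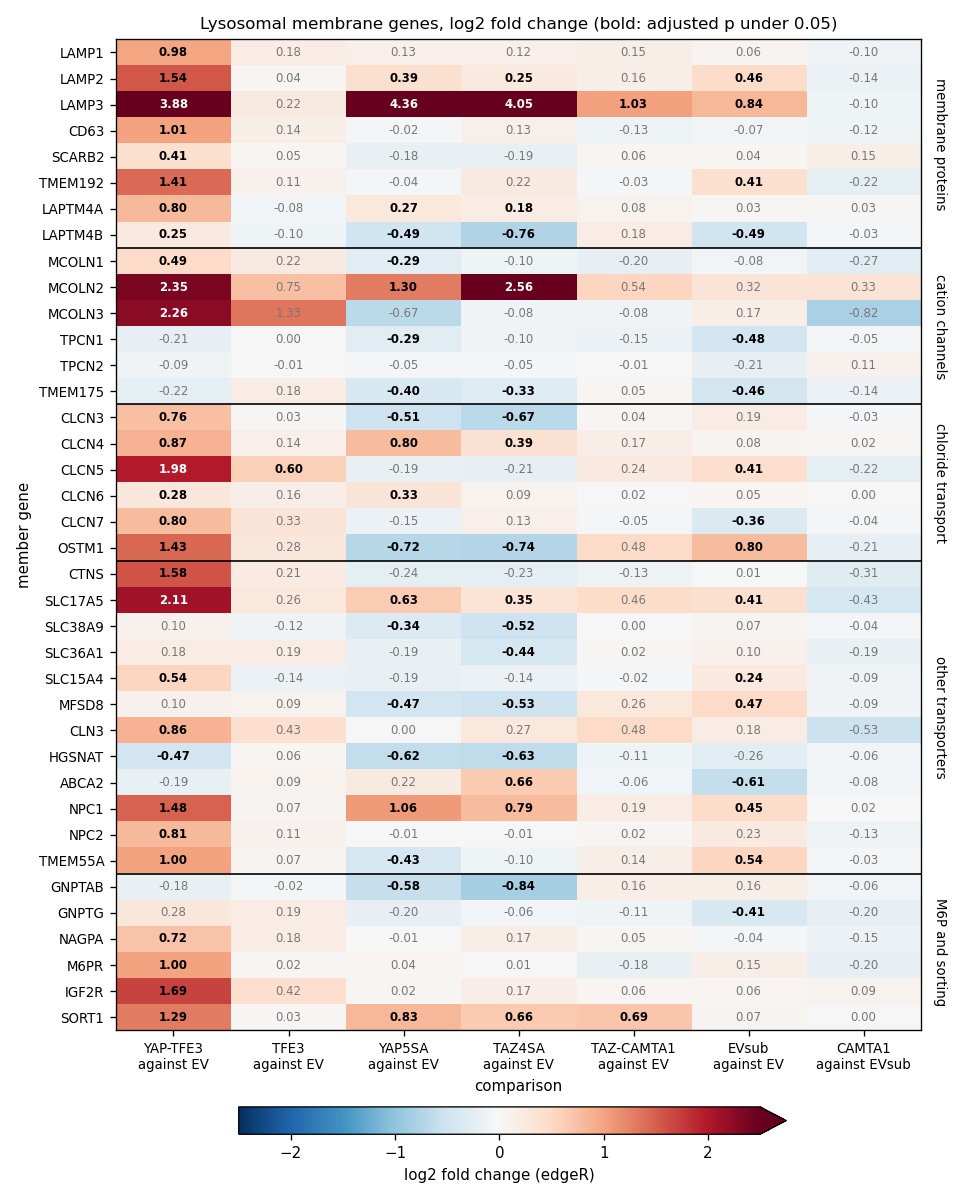
log2 fold change of the 38 tested members (rows, grouped by role) in 7 comparisons (columns), with the value in each cell, bold where the adjusted p was under 0.05. The YAP-TFE3 column holds 28 bold positive values and 1 bold negative value (HGSNAT), the TFE3 column 1 bold value (CLCN5) and the CAMTA1 column 0.

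Members with and without an E-box near the start site were counted in the same comparison. Of the 12 members with TCACGTG in a window, 10 were called higher in YAP-TFE3 than in EV, with a median log2 fold change of 0.83, and of the 20 tested members with windows that lacked it, 13 were called higher, with a median of 0.78. For TCACGTGA the counts were 7 of 9 with it (median 0.72) and 16 of 23 without it (median 0.80). For the core CACGTG they were 11 of 13 with it (median 0.86) and 12 of 19 without it (median 0.76). The differences between members with and without a motif were not tested. GNPTG and SLC36A1 held 2 E-boxes each and did not pass the test. SLC17A5, CTNS and NPC1, among the members with the largest rises, had no CACGTG in the windows searched.

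The other lysosomal genes were described by fixed lists, also chosen with earlier results of these data known. Of 46 hydrolases and activators of the lumen, 32 were higher and 0 lower in YAP-TFE3 than in EV (median log2 fold change 0.79), among them the protease CTSS (6.88-fold) and the phosphatase ACP5 (4.7-fold). Of 23 tested subunits of the proton pump, 13 were higher and 2 lower (median 0.35), and ATP6V1C1 was 2.82-fold higher. ATP6V0D2, a pump subunit known from osteoclasts, had 0 counts in every EV library and 30 to 81 in YAP-TFE3, at least 16.3-fold higher against a floor of 3 counts per library. Of 15 tested genes of the MiT/TFE, folliculin and Rag list, 8 were higher and 1 lower (median 0.63). TFE3 is on that list and among the higher genes, and its reads include those of the construct. RRAGD, a Rag GTPase that recruits mTORC1 and these factors to lysosomes, was at 2.97, 3.28 and 4.56 CPM in EV and 101, 103 and 123 in YAP-TFE3 (30.6-fold). Of 24 adaptors and tethers of the endosomal route, 9 were higher and 2 lower (median 0.10), with VPS18 at a log2 fold change of 0.87 and AP1M1 at -0.44.

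Full-length TFE3 gave 1 called member. CLCN5 was higher in TFE3 than in EV, where 0.0350% of all genes were called higher and 0.00% lower. It was at 17.2, 17.4 and 20.6 CPM in TFE3 against 11.6, 12 and 12.8 in EV (1.52-fold, log2 fold change 0.60 ± 0.11 SE, adjusted p 0.0242). The groups did not overlap, but the call was lost without EV replicate 1 (log2 fold change 0.57), EV replicate 2 (0.60), EV replicate 3 (0.64) or TFE3 replicate 3 (0.51), and under total-count scaling (0.61, adjusted p 0.0717). Of the 38 members, 32 had a positive log2 fold change, as did 50.2% of all genes, and the members' median was 0.13.

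At an unadjusted p under 0.05 there were 5 members, CLCN5, IGF2R, CLCN7, MCOLN3 and CTNS, all with positive values. IGF2R had a log2 fold change of 0.42 (95% interval 0.21 to 0.62) and its libraries overlapped with EV. MCOLN3 had 21, 18 and 49 counts in TFE3 (1.33, 0.34 to 2.32), the last of these well above the others. LAMP1 (0.18, -0.01 to 0.36), LAMP2 (0.04, -0.16 to 0.25) and NPC1 (0.07, -0.13 to 0.27) had intervals that ended below their log2 fold changes in YAP-TFE3, 0.98, 1.54 and 1.48.

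The fusion was also set directly against full-length TFE3. Of the 38 members, 25 were higher and 3 lower in YAP-TFE3 than in TFE3, where 25.4% and 22.5% of all genes were called, with a median log2 fold change of 0.71 over members and -0.02 over all genes. LAMP3 was at 1.34, 1.21 and 1.01 CPM in TFE3 (12.7-fold higher in the fusion, adjusted p 4.38e-12). SLC17A5 was at 17.4, 17.1 and 22.8 CPM in TFE3 (3.59-fold higher in the fusion), LAMP2 at 147, 151 and 186 (2.83-fold) and NPC1 at 57.9, 50.5 and 62 (2.66-fold). CTNS was at 52.2, 45.2 and 50.6 CPM in TFE3 (2.59-fold higher in the fusion), TMEM192 at 28, 32.3 and 35.5 (2.46-fold) and MCOLN2 at 0.672, 0.331 and 0.618 (3.02-fold). CLCN5, the member called with TFE3, was 2.59-fold higher in the fusion. These 8 were picked as the largest called changes without overlap between the groups. TFE3 RNA itself had a log2 fold change of -0.25 in the same comparison (adjusted p 0.0482), and its libraries overlapped. The fusion holds only the C-terminal part of TFE3, so these counts do not compare the amounts of the 2 constructs.

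The 3 members lower in the fusion were HGSNAT (log2 fold change -0.53), TMEM175 (-0.40) and ABCA2 (-0.28). TMEM175 and ABCA2 lost their calls without TFE3 replicate 1 (-0.35 and -0.17), YAP-TFE3 replicate 1 (-0.32 and -0.17) or YAP-TFE3 replicate 2 (-0.33 and -0.31). Among the higher members, MCOLN1 (0.27) lost its call without TFE3 replicate 2 (0.21) or 3 (0.30) or YAP-TFE3 replicate 1 (0.30) or 3 (0.21) and under total-count scaling (0.17), and LAPTM4B (0.35) without TFE3 replicate 2 (0.26).

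**Figure D4:**
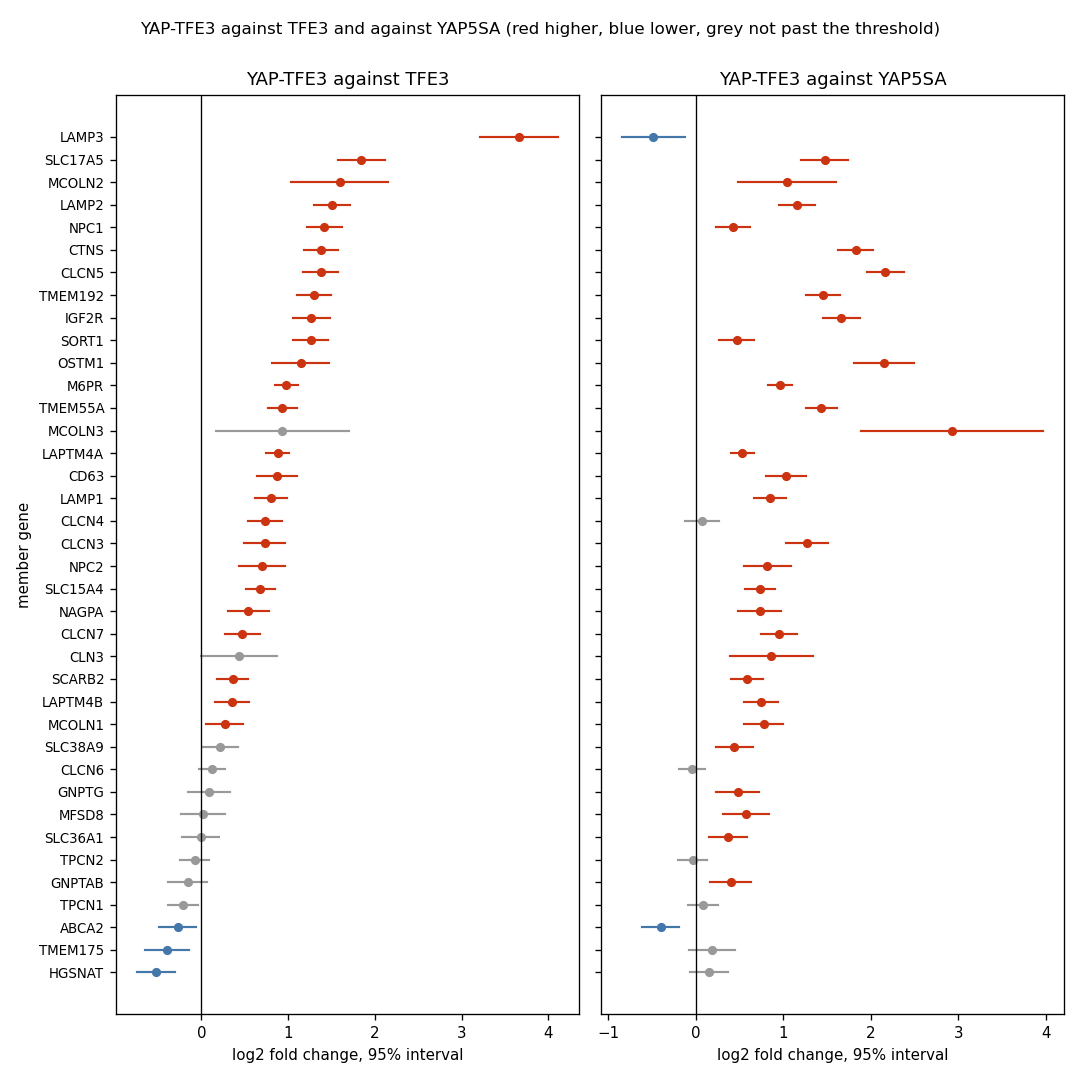
log2 fold change (points) with its 95% interval (lines) of the 38 tested members for YAP-TFE3 against TFE3 and for YAP-TFE3 against YAP5SA. Colours mark members called higher (25 and 30), lower (3 and 2) or not past the threshold, and LAMP3 is at 3.66 against TFE3 and at -0.49 against YAP5SA.

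YAP5SA gave calls in both directions. Of the 38 members, 9 were higher and 11 lower than in EV, where 22.7% and 21.6% of all genes were called. The higher count lies near its share and the lower count somewhat above, so both are given as a description. The median log2 fold change was -0.10 over members and -0.04 over all genes. Scaling by total counts in place of TMM factors moved the median of all genes by -0.18 and gave 6 higher and 20 lower members, so that the values below are relative to the TMM scale. LAMP3 was at 19.6, 17.3 and 26.5 CPM (20.6-fold higher, adjusted p 5.8e-13). NPC1 was at 115, 114 and 109 CPM in YAP5SA against 49.5, 54.8 and 58.4 in EV (2.08-fold) and SORT1 at 231, 219 and 246 against 120, 131 and 141 (1.78-fold).

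CLCN4 was at 47.1, 43.1 and 40.6 CPM against 23, 23.1 and 29.2 in EV (1.74-fold), SLC17A5 at 28.4, 24.8 and 20.9 (1.55-fold) and MCOLN2 at 1.04, 0.666 and 0.683 (2.47-fold). These 6 were picked from called members with every YAP5SA library above every EV library. LAMP2 (log2 fold change 0.39), CLCN6 (0.33) and LAPTM4A (0.27) were the other higher calls, and total-count scaling ended these calls (0.21, 0.14 and 0.08).

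OSTM1, the CLCN7 partner, was lower with YAP5SA, at 15.6, 14.2 and 21.3 CPM against 30.1, 25.8 and 28.6 in EV (log2 fold change -0.72 ± 0.17 SE, adjusted p 0.00167). HGSNAT was at 74.8, 68.2 and 69.2 CPM (-0.62, adjusted p 7.76e-05), and neither gene overlapped with EV. GNPTAB (-0.58), CLCN3 (-0.51), LAPTM4B (-0.49) and TMEM55A (-0.43) were also lower. The remaining 5 lower calls each depended on a library. MFSD8 (-0.47) lost its call without YAP5SA replicate 2 (-0.34) and TMEM175 (-0.40) without EV replicate 3 (-0.34) or YAP5SA replicate 1 (-0.28). SLC38A9 (-0.34) lost it without EV replicate 1 (-0.31) or 2 (-0.31) or YAP5SA replicate 2 (-0.25), and TPCN1 (-0.29) without EV replicate 3 (-0.20) or YAP5SA replicate 3 (-0.22). MCOLN1 (-0.29) lost it without EV replicate 2 (-0.25) or 3 (-0.18) or YAP5SA replicate 1 (-0.21) or 3 (-0.30), and by DESeq2 (-0.28, adjusted p 0.0507).

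Members that did not pass the test with YAP5SA included IGF2R (log2 fold change 0.02, 95% interval -0.18 to 0.23), M6PR (0.04, -0.09 to 0.17), LAMP1 (0.13, -0.05 to 0.31) and CD63 (-0.02, -0.25 to 0.21). The upper ends of these intervals lay below the same genes' values in YAP-TFE3 against EV, 1.69, 1.00, 0.98 and 1.01. M6PR was at -0.15 and was called lower under total-count scaling.

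Set directly against YAP5SA, YAP-TFE3 was higher for 30 members and lower for 2, where 28.1% and 24.3% of all genes were called, with a median log2 fold change of 0.74 over members and 0.05 over all genes. MCOLN3 had 10, 1 and 4 counts in YAP5SA against 59, 37 and 73 in YAP-TFE3 (7.6-fold, adjusted p 5.91e-05). CLCN5 was at 10.9, 10.2 and 10.8 CPM in YAP5SA (4.48-fold higher in the fusion) and OSTM1 was at 82.9, 67.3 and 77.1 in the fusion (4.43-fold higher). CTNS was at 39, 38 and 31.5 CPM in YAP5SA (3.54-fold higher in the fusion) and IGF2R at 238, 233 and 260.5 (3.16-fold). TMEM192 was at 28.5, 26.9 and 30.6 CPM in YAP5SA and 87.1, 83.1 and 65 in the fusion (2.74-fold). TMEM55A was at 8.69, 8.9 and 8.84 CPM in YAP5SA and 24.1, 24.1 and 23.1 in the fusion (2.7-fold). SLC17A5 was 2.77-fold higher in the fusion. Lack of overlap between the groups was a condition for picking these 8.

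NPC1 (log2 fold change 0.42) and SORT1 (0.47), called higher in both groups against EV, were higher in the fusion than in YAP5SA. CLCN4 (0.07, 95% interval -0.13 to 0.26), CLCN6 (-0.05, -0.20 to 0.11) and HGSNAT (0.15, -0.07 to 0.37) did not pass the test. GNPTAB (0.40) and SLC36A1 (0.36) lost their calls without YAP-TFE3 replicate 3 (0.22 and 0.25). The 2 members lower in the fusion were ABCA2 (-0.40, adjusted p 0.00343) and LAMP3 (-0.49, adjusted p 0.0296). The LAMP3 libraries overlapped, and its call was lost without YAP-TFE3 replicate 3 (-0.30) or YAP5SA replicate 3 (-0.29) and under total-count scaling (-0.39).

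The libraries labelled TAZ4SA gave 9 higher and 9 lower of 38 members against EV, where 25.1% and 24.2% of all genes were called. Both counts lie near these shares and are given as a description. With total-count scaling the median of all genes moved by -0.20, and 5 members were then higher and 18 lower. LAMP3 was at 14.4, 14.9 and 21.9 CPM (16.6-fold higher, adjusted p 2.24e-12) and MCOLN2 at 1.29, 2.28 and 2.12 (5.88-fold). NPC1 was at 98, 98.3 and 84.2 CPM (1.72-fold) and SORT1 at 191, 206 and 222 (1.58-fold). These 4 were picked from called members without overlap with EV. ABCA2 was 1.58-fold higher, and in YAP5SA its log2 fold change was 0.22 (adjusted p 0.11). The difference between those 2 constructs was not tested.

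CLCN4 was 1.31-fold higher in the libraries labelled TAZ4SA, a call that total-count scaling ended (log2 fold change 0.19). SLC17A5 (0.35) lost its call without EV replicate 1 (0.29) or 2 (0.35) or TAZ4SA replicate 1 (0.37), 2 (0.32) or 3 (0.35), and under total-count scaling (0.15). LAMP2 (0.25) lost it without EV replicate 1 (0.27), 2 (0.21) or 3 (0.28) or TAZ4SA replicate 2 (0.27) or 3 (0.15), under total-count scaling (0.06) and by DESeq2 (0.25, adjusted p 0.0534). LAPTM4A (0.18) lost it without EV replicate 1 (0.16) or 3 (0.17) or TAZ4SA replicate 1 (0.19) or 2 (0.16), and was at -0.01 under total-count scaling.

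GNPTAB was lower in the libraries labelled TAZ4SA, at 33.2, 34.4 and 43.2 CPM against 70.2, 63.1 and 64.7 in EV (log2 fold change -0.84 ± 0.12 SE, adjusted p 3.12e-06). LAPTM4B was at 337, 336 and 308 CPM against 524, 558 and 579 in EV (-0.76), OSTM1 at 16.2, 14.2 and 20.2 (-0.74) and CLCN3 at 40.9, 46.1 and 58 against 79.5, 74 and 76.5 (-0.67). None of the 4 overlapped with EV. HGSNAT (-0.63), MFSD8 (-0.53), SLC38A9 (-0.52) and SLC36A1 (-0.44) were also lower. TMEM175 (-0.33) lost its call without EV replicate 1 (-0.34) or 3 (-0.27) or TAZ4SA replicate 2 (-0.28) or 3 (-0.33).

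**Figure D5:**
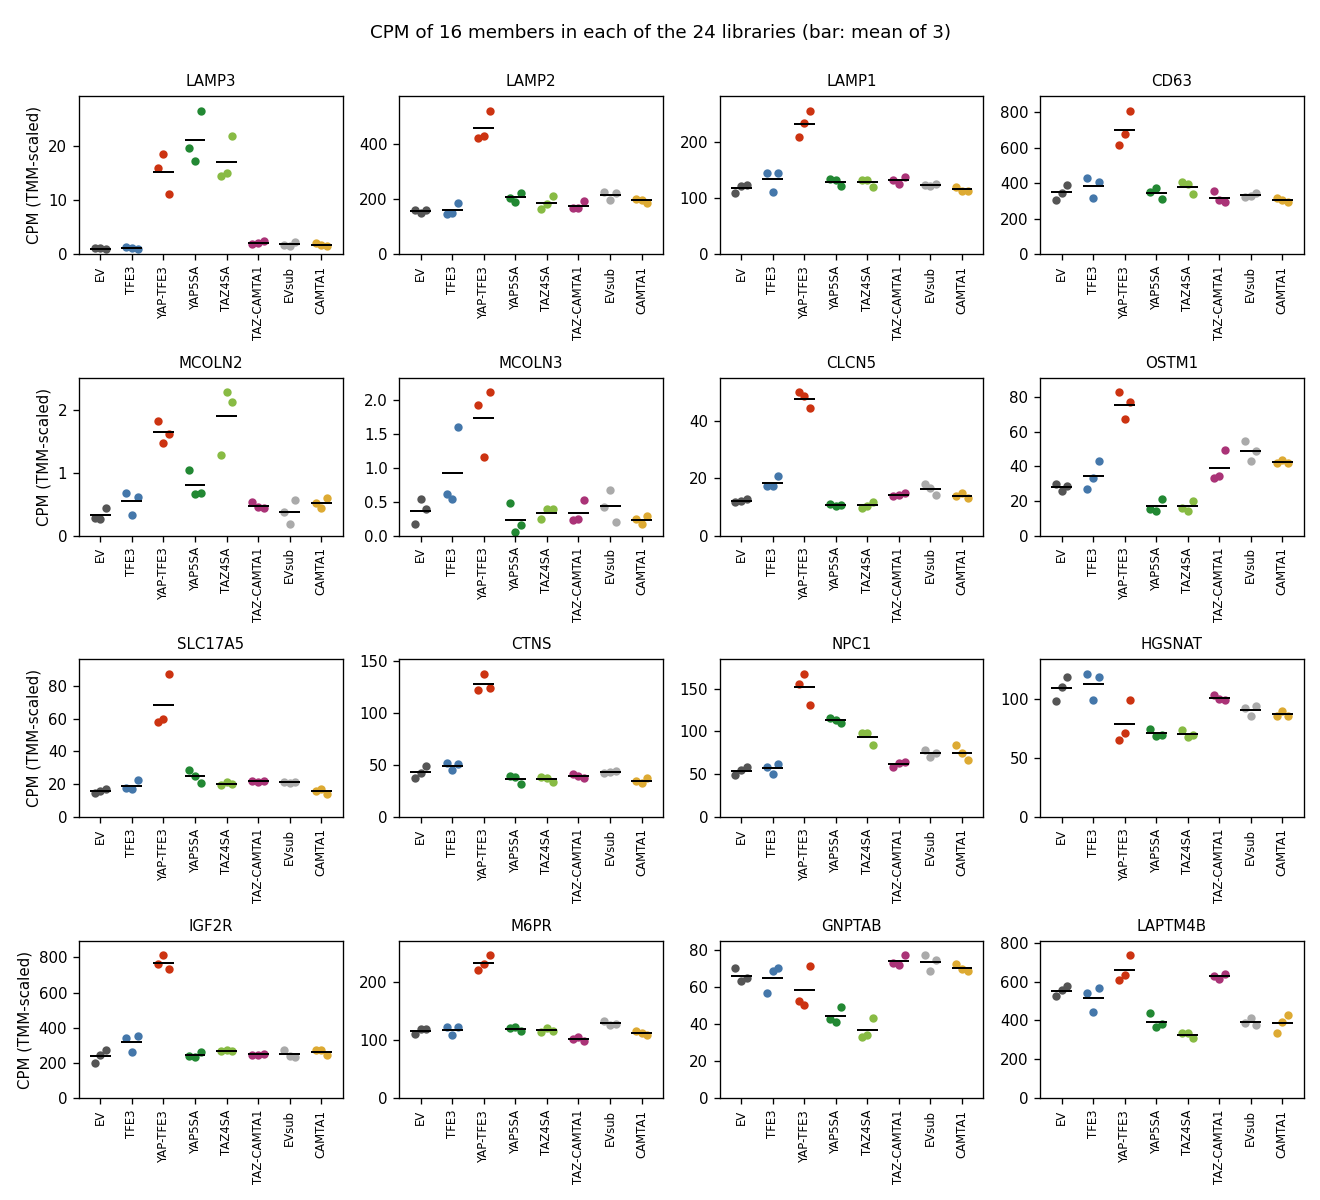
CPM (y axis, TMM-scaled) of 16 members in each library, 1 panel per gene, with points for the 3 libraries of each of the 8 groups and a bar for their mean. LAMP3 lies at 11.1 to 26.5 CPM in YAP-TFE3, YAP5SA and TAZ4SA and at 0.873 to 2.40 CPM elsewhere, and CLCN5, CTNS, IGF2R and M6PR have their highest 3 libraries in YAP-TFE3.

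The other lysosomal lists had calls in both directions with YAP5SA, where 22.7% of all genes were called higher and 21.6% lower, and in the libraries labelled TAZ4SA, where the shares were 25.1% and 24.2%. Several of the counts lie near these shares and are given as a description. Of the 46 hydrolases, 7 were higher and 16 lower with YAP5SA, and 9 and 13 in the libraries labelled TAZ4SA. Of the 23 pump subunits, 7 and 8 were higher in these comparisons and 2 lower in each, and of the 15 genes of the MiT/TFE and Rag list 2 were higher in each and 6 and 5 lower. The adaptors had 5 higher and 3 lower with YAP5SA, and 7 and 5 with the other label. In TFE3 against EV, 2 genes of the MiT/TFE and Rag list were called higher, where 0.0350% of all genes were. They were TFE3, the gene of the construct itself, and RRAGD, at 6.72, 6.69 and 11.4 CPM in TFE3 against 2.97, 3.28 and 4.56 in EV.

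TAZ-CAMTA1 gave 2 called members against EV, LAMP3 and SORT1, both higher, where 3.55% of all genes were called higher and 1.44% lower. SORT1 was at 198, 211 and 222 CPM against 120, 131 and 141 in EV (1.61-fold, adjusted p 0.000107). LAMP3 was at 1.86, 1.99 and 2.4 CPM against 1.1, 1.07 and 0.873 (2.04-fold, adjusted p 0.0278). Neither gene overlapped between the groups. LAMP3 lost its call without EV replicate 1 (log2 fold change 1.09), 2 (1.06) or 3 (0.94) or TAZ-CAMTA1 replicate 2 (1.06) or 3 (0.91). SLC17A5 (0.46, adjusted p 0.0586) and OSTM1 (0.48, adjusted p 0.114) did not pass the test. Their libraries lay above those of EV, but so did those of other uncalled members such as LAPTM4B and CLCN5. Those of M6PR, also uncalled, lay below EV.

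Against the libraries labelled TAZ4SA, TAZ-CAMTA1 was higher for 12 members and lower for 6, where 26.9% and 26.8% of all genes were called. With total-count scaling the median of all genes moved by 0.20, and 16 members were then higher and 4 lower. OSTM1 was at 33.4, 34.6 and 49.5 CPM in TAZ-CAMTA1 (2.32-fold higher there), GNPTAB at 72.7, 72 and 77 (2.00-fold) and LAPTM4B at 628, 611 and 641 (1.92-fold). MFSD8 was at 16.1, 18.3 and 19.5 CPM against 9.48, 11 and 10.9 (1.72-fold) and CLCN3 at 73.1, 77.8 and 85.1 (1.63-fold). These 5 did not overlap, and HGSNAT, SLC38A9, SLC36A1 and CLCN5 were higher by log2 fold changes of 0.52, 0.52, 0.46 and 0.44.

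LAMP3 was 8.16-fold lower in TAZ-CAMTA1 than in the libraries labelled TAZ4SA, MCOLN2, at 0.531, 0.445 and 0.431 CPM, 4.03-fold lower, and ABCA2, at 113, 104 and 109 CPM against 186, 185 and 166, 1.65-fold lower. NPC1 had a log2 fold change of -0.60. The last 2 lower calls, M6PR (-0.19) and TMEM192 (-0.25), were lost under total-count scaling (0.01 and -0.05). M6PR was also lost without TAZ4SA replicate 2 (-0.17), and TMEM192 without TAZ4SA replicate 2 (-0.24) or 3 (-0.21) or TAZ-CAMTA1 replicate 1 (-0.25) or 2 (-0.23). Among the higher calls, TMEM175 (0.38) was lost without TAZ-CAMTA1 replicate 3 (0.24) or TAZ4SA replicate 2 (0.33). SCARB2 (0.25) was lost without TAZ-CAMTA1 replicate 3 (0.14) or TAZ4SA replicate 1 (0.21) or 2 (0.23), and TMEM55A (0.24) without TAZ-CAMTA1 replicate 3 (0.16) or TAZ4SA replicate 2 (0.17).

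In TAZ-CAMTA1 against YAP-TFE3, the 2 fusions, 2 members were higher and 27 lower, where 19.9% and 22.8% of all genes were called, with a median log2 fold change of -0.71 over members and 0.01 over all genes. LAMP3 was 7.22-fold lower in TAZ-CAMTA1, MCOLN3, with 6, 7 and 17 counts, 5.08-fold and MCOLN2 3.49-fold. CLCN5 was at 13.8, 13.9 and 15 CPM (3.34-fold lower), CTNS at 40.8, 39.2 and 37.5 (3.27-fold) and SLC17A5 at 22.1, 21.5 and 22 (3.13-fold). IGF2R was at 247, 248 and 254 CPM in TAZ-CAMTA1 (3.09-fold lower) and TMEM192 at 28.3, 28.5 and 30.2 (2.71-fold). Lack of overlap between the groups was again a condition for picking these 8.

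The 2 higher members were HGSNAT (log2 fold change 0.36) and GNPTAB (0.34). HGSNAT lost its call without YAP-TFE3 replicate 1 (0.24) or 2 (0.30), and GNPTAB without the same libraries (0.28 and 0.25) or TAZ-CAMTA1 replicate 3 (0.30). GNPTG (-0.39) lost it without YAP-TFE3 replicate 3 (-0.24) or TAZ-CAMTA1 replicate 2 (-0.34), and under total-count scaling (-0.30). LAPTM4B, which rose least among the glycoproteins with YAP-TFE3, had a difference of -0.07 (95% interval -0.27 to 0.12).

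Sub-confluent EVsub was compared with confluent EV, and the called members came from every role. Of 38 members, 10 were higher and 6 lower in EVsub, where 19.8% and 17.1% of all genes were called. The counts lie near these shares and are given as a description. With total-count scaling there were 8 in each direction. OSTM1 was at 54.7, 43.4 and 49 CPM in EVsub (1.74-fold higher, adjusted p 0.000786), TMEM55A at 17.5, 16.5 and 17.5 against 12.7, 11.1 and 11.7 (1.45-fold) and MFSD8 at 22.5, 20.4 and 19.7 against 15.8, 15.2 and 14 (1.39-fold). The groups did not overlap for these 3. LAMP2, NPC1, CLCN5 and TMEM192 were higher by log2 fold changes of 0.46, 0.45, 0.41 and 0.41.

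ABCA2 was lower in EVsub, at 71.8, 71.1 and 81.2 CPM against 109, 111 and 121 (log2 fold change -0.61, adjusted p 0.000206). LAPTM4B was at 388, 414 and 378 CPM (-0.49), TPCN1 at 109.9, 113 and 113 against 138, 157 and 174 (-0.48) and TMEM175 at 13.3, 15.2 and 14.5 against 19.4, 18.5 and 21.3 (-0.46). These 4 did not overlap between the groups. LAMP3, at 1.75, 1.44 and 2.21 CPM in EVsub (0.84), lost its call without EV replicate 3 (0.75) or EVsub replicate 3 (0.65). CLCN7 (-0.36) lost it without EV replicate 3 (-0.23), and GNPTG (-0.41) without EV replicate 3 (-0.32) or EVsub replicate 1 (-0.37). SLC17A5 (0.41) lost it without EV replicate 1 (0.35) or 2 (0.41) or EVsub replicate 1 (0.41) or 3 (0.39). SLC15A4 (0.24) lost it without EV replicate 1 (0.25), 2 (0.24) or 3 (0.22) or EVsub replicate 1 (0.24), 2 (0.22) or 3 (0.26). Total-count scaling ended the calls of both (SLC17A5 0.34 and SLC15A4 0.17).

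CAMTA1 gave no called member against EVsub by edgeR or by DESeq2, where 1.26% and 0.570% of all genes were called higher and lower by edgeR. At an unadjusted p under 0.05 there were 5 members, all with negative values: SLC17A5 (log2 fold change -0.43, 95% interval -0.71 to -0.16), CTNS (-0.31, -0.50 to -0.11), MCOLN1 (-0.27, -0.50 to -0.05), TMEM192 (-0.22, -0.42 to -0.03) and M6PR (-0.20, -0.33 to -0.07). Of the 38 members, 7 had a positive log2 fold change, as did 48% of all genes, and the members' median was -0.09.

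Levels were also compared per kilobase of exon, as means over the 24 libraries. CD63 was at 161 CPM per kb, LAPTM4B at 151 and LAPTM4A at 124, while MCOLN2 was at 0.238, CLN3 at 0.190 and MCOLN3 at 0.0863. IGF2R was at 14.4 CPM per kb and LAMP2 at 20.6. The depth behind a member therefore varied, from a mean of 13620 counts per library for LAPTM4B to 16.9 for MCOLN3. In YAP-TFE3 against EV the SE of the log2 fold change was 0.47 for MCOLN3 and 0.07 for M6PR, so that a difference of the size called for LAPTM4B was not detectable for MCOLN3 at this depth.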

How the data were processed

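Poly(A) RNA of 24 SW872 libraries was sequenced with a stranded mRNA kit. The authors deposited whole-number read counts per Ensembl gene, 1 table per library, with hg38 named as the build per the labels. Their methods name bcbio-nextgen 1.0.8 and Hisat2. The counting program of the deposited tables, its use of strand and its treatment of reads with several matches are not given in the sources used here. Groups and replicate numbers came from the titles. Per the study's methods, the 3 libraries of a group came from separate transductions followed by stable selection, so their spread includes that between transduced pools of the same line.

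Genes whose mean over the libraries reached 5 counts were tested with the edgeR 4.0.16 quasi-likelihood F test (R 4.3.3), TMM factors and 1 fit over all 24 libraries. P-values were adjusted by Benjamini-Hochberg over the 19997 genes tested, at a threshold of 0.05. The SE was computed from the log2 fold change and F, and the 95% interval is a normal interval from that SE. The steps were tested on simulated data. CPM values were scaled by TMM factors. Floors and intervals cover counting error and the spread between libraries, which includes that between transduced pools, and no other error. Exon lengths and overlaps came from GENCODE 44 and promoter windows from RefSeq.

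The members and lists were chosen with earlier results of these data known. Each member was named, and values in every library were given for up to 8 called members per comparison with the largest change and no overlap, and for members near the floor. Outside the members, the construct genes, up to 2 called genes per list and markers were named. A few further members were given library values where a result turned on them (HGSNAT and CLN3). Alternatives were DESeq2 1.42.0, its size factors, total-count scaling, other filters on low counts, fits of the compared groups only, a replicate block and leaving out each library.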

Additional observations from a re-analysis of the deposited data

How the results depend on the processing

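Of the called members, 27 of 29 were called under every alternative in YAP-TFE3 against EV, 24 of 28 against TFE3 and 29 of 32 against YAP5SA, 12 of 20 in YAP5SA, 13 of 18 in TAZ4SA, 1 of 2 in TAZ-CAMTA1 and 11 of 16 in EVsub against EV, 13 of 18 in TAZ-CAMTA1 against TAZ4SA and 24 of 29 against YAP-TFE3. In TFE3 against EV the count of 1 became 0 with the replicate block, with total-count scaling and with the compared groups only, and 2 with genes of at least 1 count. In TAZ-CAMTA1 against EV the count of 2 became 4 with genes of at least 1 count and with the compared groups only. In CAMTA1 against EVsub the count of 0 became 1 with genes of at least 1 count and 2 with the compared groups only, all lower. Leaving out 1 library gave 0 to 2 calls in TFE3 and 1 to 2 in TAZ-CAMTA1 against EV. Under total-count scaling M6PR turned to -0.15 in YAP5SA and -0.19 in TAZ4SA against EV and to 0.0086 in TAZ-CAMTA1 against TAZ4SA, and LAPTM4A to -0.0138 in TAZ4SA against EV. The cause was not tested. Replicate numbers did not pair the libraries: the mean correlation of same-numbered deviations ran from -0.0962 to 0.129 over the comparisons, and the replicate block otherwise left the counts close, for example 30 against 29 in YAP-TFE3 against EV. The block ended the calls of CLCN5 in TFE3 against EV and of TMEM192 in TAZ-CAMTA1 against TAZ4SA. A fit of the compared groups only ended those of CLCN6 and LAPTM4B in YAP-TFE3 against EV, of ABCA2, LAPTM4B, MCOLN1 and TMEM175 against TFE3, of GNPTAB, LAMP3 and SLC36A1 against YAP5SA, and of CLCN6, GNPTAB, GNPTG, HGSNAT and SCARB2 in TAZ-CAMTA1 against YAP-TFE3. Against EV it also ended the calls of CLCN5 in TFE3, MCOLN1 in YAP5SA, LAMP2 and LAPTM4A in TAZ4SA, and SLC15A4 in EVsub. That of TMEM55A in TAZ-CAMTA1 against TAZ4SA was ended as well. Low counts limit MCOLN2, MCOLN3, CLN3 and CD68.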
